A study of Mus musculus with 10 samples.

Results

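Processed pseudogenes were measured by RNA sequencing in 10 male mouse embryonic stem cell (ESC) lines of 3 genotypes. The lines were 3 wild-type (wt, Tdg+/+), 3 heterozygous (Tdg+/-, called het) and 4 homozygous mutant (Tdg-/-, called null) lines, each 1 library, without any treatment. All were labelled C57BL/6, came from 5 matings of Tdg+/- parents and were grown with inactivated feeder cells before they were moved to gelatin in serum-free medium with 2i and LIF. Which mating a line came from is not given, so every p value below reflects the spread between lines. The pseudogenes were all genes annotated as processed_pseudogene or transcribed_processed_pseudogene that reached 20 reads in any line, leaving out Tdg-ps, Tdg-ps2 and Ndufa12-ps. This gave 1039 of 10148 annotated processed pseudogenes (10.2%), of which 961 were processed and 78 transcribed processed pseudogenes. The other 9109 did not reach 20 reads in any line.

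A processed pseudogene arises when a messenger RNA is copied back into DNA by the reverse transcriptase of a mobile element and inserted elsewhere in the genome. The copy lacks introns and the promoter of its parent gene, and most copies come from genes that are highly expressed in the germline or early embryo, above all ribosomal protein genes. Because a recent copy is nearly identical to its parent, a short read can match both, and a quantifier such as Salmon divides such reads between them by estimation. A read that seems to come from a pseudogene may thus be its own transcript, its parent's transcript or unspliced RNA of a gene in which it lies.

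The lines held 31095354 to 39916106 reads in genes. Tdg was measured at 90.5 to 94.9 CPM (reads per 1000000 reads in genes) in wt, 42.1 to 47.8 in het and 7.89 to 9.68 in null lines, in the order of the labels. The 9 ESC markers, such as Pou5f1, Nanog and Sox2, were all measured and summed to 6725 to 9187 CPM. The 9 markers of feeder fibroblasts were measured too and summed to 10.1 to 68.6 CPM, the 6 of primitive endoderm to 1.86 to 3.16 CPM and the 6 of two-cell-like cells to 0.0944 CPM at most, with Zfp352 at 0. By genotype the feeder sum ran from 30.7 to 64.3 CPM in wt, 10.1 to 68.6 in het and 18.9 to 47.6 in null lines, and its part in the results below was not tested. In bulk samples fewer cells of a type and less RNA per cell cannot be told apart.

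The pseudogenes together took 1.45% to 2.05% of the reads of a line, and few of them carried most of this. Their median level was 1.09 CPM, 493 lay under 1 CPM on average and 31 above 100 CPM. The 10 most abundant held 49.7% of the summed level. Gm15500, closest to the ribosomal protein gene Rpl5, led with 1850 ± 468 CPM in wt (SD, n = 3), 2280 ± 327 in het (n = 3) and 2074 ± 564 in null lines (n = 4). Eif4a-ps4, closest to the translation initiation helicase Eif4a1, followed with 1648 ± 20.3, 1921 ± 220 and 1740 ± 149 CPM. Gm10275 (closest to Rpl12), Gm6472 (Rps7), Gm10288 (Rpl11), Rpl14-ps1 (Rpl14), Gm7536 (Rpl27a), Rps4l (Rps4x), Gm9892 (Eif2s2) and Gm1821 (the ubiquitin gene Ubb) made up the rest, and their mean levels over all lines fell from 1044 to 341 CPM. None of these 10 differed between genotypes past the threshold used below.

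A closest protein-coding gene was found by sequence for 1033 of the 1039 pseudogenes, and these pointed to 381 distinct genes. For 461 pseudogenes it was a ribosomal protein gene, and these held 46.2% of the summed level. A further 30 were closest to translation factors (15.1% of the level), 54 to glycolytic enzymes (3.92%), 43 to chaperones and folding factors (2.04%), 32 to high mobility group proteins (1.96%) and 7 to proteasome and ubiquitin genes (2.46%). The closest gene lay on the pseudogene's own chromosome in 72 cases. In the annotation 137 pseudogenes overlapped another gene on the same strand and 210 overlapped one on the opposite strand.

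Sequence set how well a pseudogene could be told from its parent, so examples of both kinds are shown as RNA-sense coding stretches of the reference transcripts (GENCODE M21, build GRCm38), 5′ to 3′, with the bases that differ between pseudogene and closest gene in capitals. Rps6-ps4 was identical to the coding sequence of Rps6, the small ribosomal subunit protein S6, over all 750 bases, and its first 120 bases stand for both.
Rps6-ps4: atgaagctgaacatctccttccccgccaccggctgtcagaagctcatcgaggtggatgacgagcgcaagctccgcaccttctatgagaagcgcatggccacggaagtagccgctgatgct
Tma7-ps differed at 2 of 195 coding bases from Tma7, a small protein linked to translation.
Tma7-ps: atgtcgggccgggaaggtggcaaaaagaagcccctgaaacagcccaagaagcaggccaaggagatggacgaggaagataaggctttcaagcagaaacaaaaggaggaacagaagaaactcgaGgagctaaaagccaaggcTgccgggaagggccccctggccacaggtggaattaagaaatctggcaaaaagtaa
Tma7: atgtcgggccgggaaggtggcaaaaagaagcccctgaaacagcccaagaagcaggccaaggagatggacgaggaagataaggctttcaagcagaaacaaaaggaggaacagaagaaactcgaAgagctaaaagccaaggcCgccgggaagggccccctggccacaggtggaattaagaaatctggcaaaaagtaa
Tdgf1-ps1 differed at 6 of 512 aligned coding bases from Tdgf1, the Nodal co-receptor Cripto of ESCs, and a stretch of 120 bases holds 3 of them.
Tdgf1-ps1: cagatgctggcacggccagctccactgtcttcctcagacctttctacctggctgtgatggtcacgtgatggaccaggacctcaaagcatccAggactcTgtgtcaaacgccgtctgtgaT
Tdgf1: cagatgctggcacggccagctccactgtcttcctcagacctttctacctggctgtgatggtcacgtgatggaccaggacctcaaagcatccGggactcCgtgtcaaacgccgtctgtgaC
Gm11868 differed at 30 of 1485 aligned coding bases from Cyb5r4, a cytochrome b5 reductase, and a stretch of 120 bases holds 4 of them.
Gm11868: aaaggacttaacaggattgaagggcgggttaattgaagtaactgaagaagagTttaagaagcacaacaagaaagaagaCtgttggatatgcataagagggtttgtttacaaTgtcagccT
Cyb5r4: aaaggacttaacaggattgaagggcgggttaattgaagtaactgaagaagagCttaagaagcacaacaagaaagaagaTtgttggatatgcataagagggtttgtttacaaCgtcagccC
Gm9855 differed at 9 of 1194 coding bases from Tdg, the DNA glycosylase gene whose alleles define the genotypes, and a stretch of 120 bases holds 5 of them.
Gm9855: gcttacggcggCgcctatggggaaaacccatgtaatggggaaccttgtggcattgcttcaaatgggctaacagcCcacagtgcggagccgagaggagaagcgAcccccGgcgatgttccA
Tdg: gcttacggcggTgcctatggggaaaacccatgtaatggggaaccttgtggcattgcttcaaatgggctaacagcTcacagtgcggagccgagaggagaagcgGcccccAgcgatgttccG

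Whether pseudogenes were switched between lines was asked next. A pseudogene was called on in a line at 20 reads or more and off at 3 reads or fewer, and switched when it was on in at least 1 line and off in at least 1 other. Of the 1039, 496 were on in all 10 lines, 130 (12.5%) were switched and 413 did neither. Most switched pseudogenes were low, since 64 stayed under 50 reads in every line, but 13 reached 1000 reads in a line. Of the 130, 39 were on in a single line and 46 were off in a single line. With 50 reads as the level for on, 66 were switched, and with any 1 line left out 117 to 125.

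The highest switched pseudogenes were on in 1 to 9 lines, with no common order of genotypes. Rps6-ps4 held 18777 reads in wt line 3 and 0 in each of the other 9 lines. Rps16-ps2, a copy of another small-subunit protein gene, held 1513 reads in wt line 3 and 0 elsewhere, and Rpl36a-ps2 held 1832 and 2305 reads in wt lines 2 and 3 and 0 elsewhere. Rps23-ps1 was on in 2 wt lines (3432 and 3908 reads) and 2 null lines (1655 and 3185 reads) and at 0 in the other 6 lines. These 4 thus differed between lines of 1 genotype.

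Others were off in the minority of lines. Rpl27-ps3 was at 0 in het lines 2 and 3 and null line 2 and held 1036 to 9706 reads in the other 7 lines. Pgam1-ps2, a copy of the glycolytic phosphoglycerate mutase gene, was at 0 in het lines 1 and 3 and held 377 to 2651 reads in the other 8. Gm7367, closest to Ubald2, was at 0 in het line 2 only and held 423 to 824 reads elsewhere. Gm15387, closest to the chromatin protein gene Hmgb1, held 647 to 2504 reads in the wt and het lines and 1214 in null line 1, and 0 in the other null lines. Gm2223, identical to the translation factor gene Eif2s3x over its matched length, had a like order, with 432 to 1401 reads in the wt and het lines, 762 in null line 1, 31.9 in null line 3 and 0 in null lines 2 and 4. Gm12989, closest to the proteasome subunit gene Psma5, was at 0 in wt line 1 and het line 2 and reached 1862 reads in null line 2. Gm8394, closest to the same gene, was at 0 in wt line 3 and reached 1375 reads in null line 2. Gm10163 (closest to Rpl21) was at 0 in wt line 1 only, and Dynlt1-ps1 at 0 in wt lines 2 and 3 and null line 2.

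**Figure D1:**
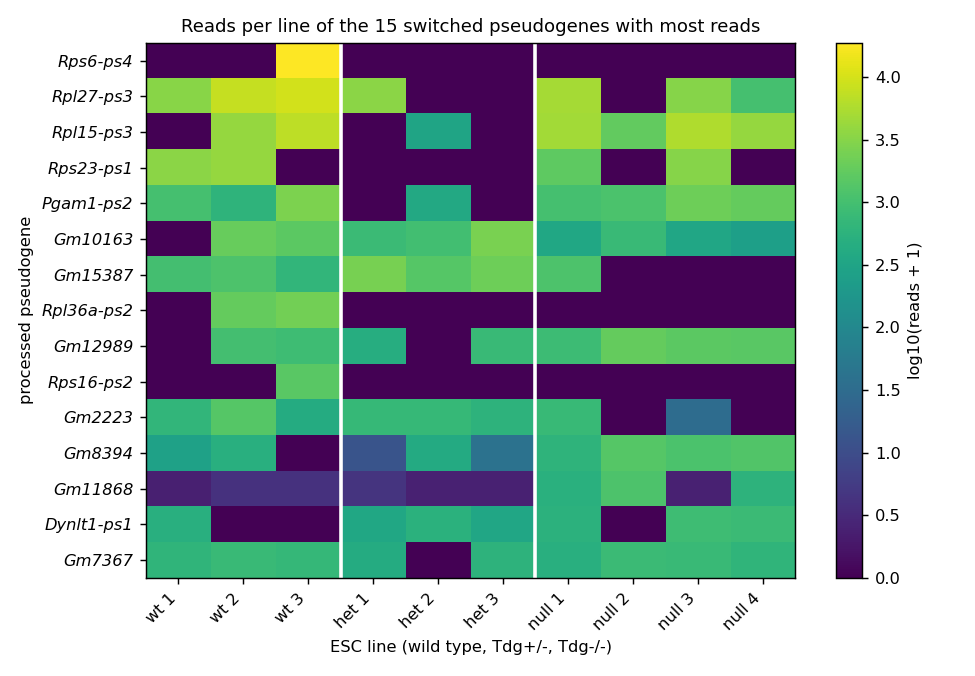
Heat map of reads per line, as log10(reads + 1), for the 15 switched pseudogenes with the highest read count in a line. Rows are pseudogenes and columns are lines, separated by genotype with white lines. Rps6-ps4 and Rps16-ps2 are on in wt line 3 only, and Gm11868 is on in null lines 1, 2 and 4.

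Switching went with how little sequence a pseudogene had of its own. All 80-base windows of a pseudogene, the length of a read here, were looked up in the transcripts of all other genes. Among the 53 pseudogenes without a single window of their own 18 were switched (34.0%), and among the 129 with up to 25% of such windows 39 (30.2%). Among the 363 with 25% to 75%, 47 were switched (12.9%), and among the 494 with over 75%, 26 (5.26%). The median identity to the closest gene fell over these classes from 100% to 99.7%, 98.5% and 94.9%. The first 2 classes held 14.0% and 51.0% of the pseudogenes' reads, so most reads sat where few windows could tell the copies apart. Mean level also differed between the classes, with medians of 12.5, 1.93, 1.39 and 0.753 CPM, and its part in the shares was not tested.

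**Figure D2:**
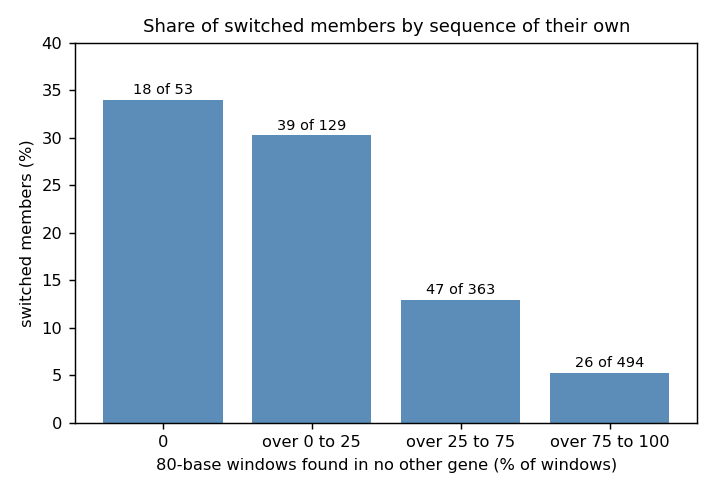
Bars give the percent of pseudogenes that were switched, by the percent of their 80-base windows found in no other gene, with the number switched of all in the class above each bar. The share falls from 34.0% with no window of their own to 5.26% with over 75%.

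Whole reads give a second view of the same division, because reads that match only 1 gene are counted whole. Only 42 pseudogenes had whole read numbers in every line (within 0.01), of which 6 were switched. For 975 pseudogenes neither they nor their closest coding gene were whole in every line, and for 98 of them (10.1%) the sum of both was whole in every line, 32 of these switched. Pdcd5-ps with Pdcd5, Tdgf1-ps1 with Tdgf1, Oaz1-ps with Oaz1 and Rpl14-ps1 with Rpl14 were such pairs.

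The sum with the parent could be formed where the symbol names it, for 160 pseudogenes of 79 measured parents, 24 of them switched. The pseudogenes were a small part of these sums, with a median share of 0.0787%, 127 under 1% and 0 above 50%. Over the 10 lines the median coefficient of variation (CV) was 32.3% for the pseudogenes, 14.8% for the parents and 14.8% for the sums. For the 24 switched ones these medians were 104%, 16.3% and 15.9%. The sum varied less than the parent alone for 13 of the 24 and for 79 of the 160.

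Switched pseudogenes with a sequence identical to the parent that their symbol names were set beside it line by line. Rps23-ps1, also switched and identical to its parent, is not included here. Rps6 had its lowest level, 2222 CPM, in wt line 3, the line in which Rps6-ps4 had 600 CPM, and the sum there was 2822 CPM against 2414 to 3292 CPM in the other lines. Its CV fell from 12.1% to 10.1% with the pseudogene added. Rpl27, of the large subunit, ranged from 597 to 1637 CPM and was lowest in wt line 3, where Rpl27-ps3 was highest with 310 CPM and made up 34.2% of the sum. The CV fell from 30.7% to 21.1%. Rpl15 with Rpl15-ps3 went from a CV of 9.22% to 7.57%, Pgam1 with Pgam1-ps2 from 5.21% to 4.39%, and Pdcd5, linked to apoptosis, with Pdcd5-ps from 12.6% to 11.3%. Rps16 with Rps16-ps2 changed from 44.2% to 43.2%, and Rpl36a with Rpl36a-ps2 from 14.7% to 13.8%.

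**Figure D3:**
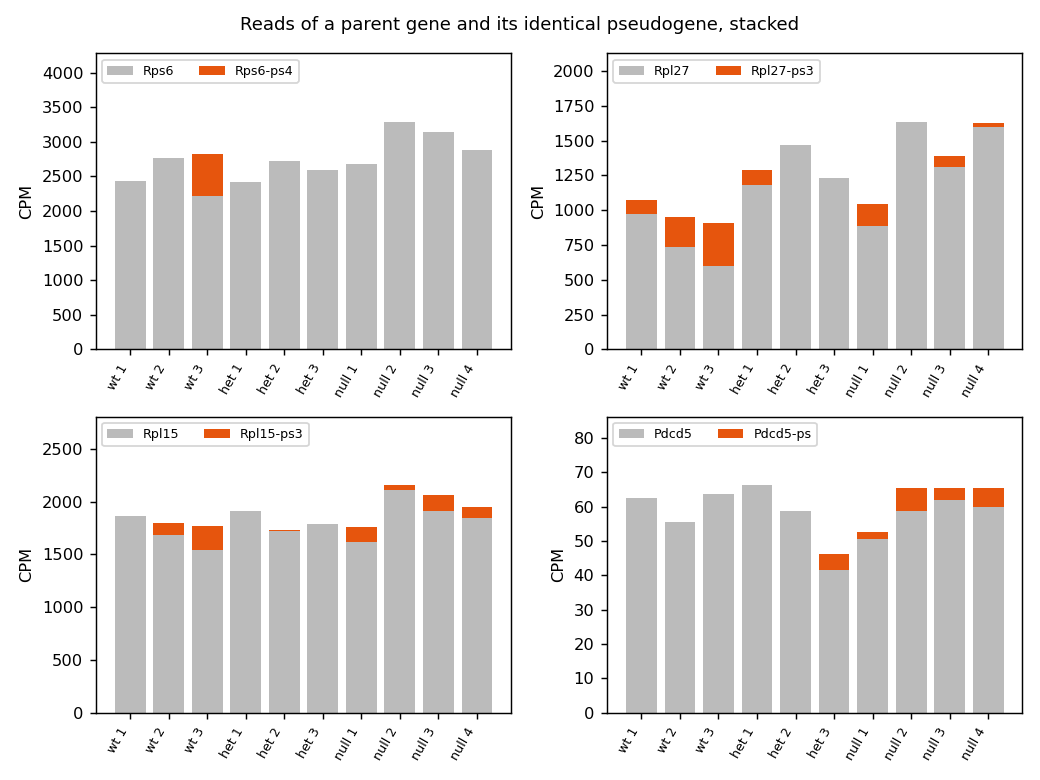
Stacked bars of CPM per line for 4 parent genes (grey) and their identical pseudogenes (orange), from 0. Rps6-ps4 appears in wt line 3 only, and Pdcd5-ps in het line 3 and all null lines.

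The largest shares of a sum belonged to pseudogenes that were on in every line. Oaz1-ps, a copy of the antizyme gene that limits polyamine synthesis, held 32.5% of its sum on average and 28.6% to 36.1% in single lines. Mageb16-ps2 held 32.3% (24.99% to 39.9%), Rpl14-ps1 30.9% (27.1% to 36.8%), Sms-ps, a copy of the spermine synthase gene, 27.5% (20.7% to 30.7%) and Mrpl23-ps1, of a mitochondrial ribosomal protein gene, 26.9% (12.9% to 41.8%). Smaller named families gave Hspd1-ps3 (82.9 CPM on average), Ube2n-ps1 (12.9 CPM), Hmgb1-ps2 (3.59 CPM) and Tubb4b-ps2 (0.427 CPM) as their most abundant members.

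A group of 10 pseudogenes was high in the same lines, and 9 of these had 62.9% to 98.0% of their windows to themselves, while Gm13841 had 17.8%. For each gene the largest gap between neighbouring lines was taken on the scale of log2(CPM + 0.1), and a gap of at least 1 was called a split. This measure was chosen after the values had been seen. A split was found for 139 of the 1039 pseudogenes (13.4%) and for 390 of the 13041 other genes that reached 20 reads (2.99%), 2 groups that also differ in level. In 19 of the 139 only 1 line was high and in 38 only 1 was low, and the other 82 had 2 to 8 high lines in 60 different combinations.

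In null lines 1, 2 and 4 together, Gm11868, Gm7049 and 4 copies of Eef1a1 were high. Gm11868 held 1.4 to 3.4 reads in the wt and het lines and null line 3, against 520, 1198 and 581 reads in null lines 1, 2 and 4. Gm13456 held 1499 to 2182 reads in the 7 lines and 11150, 33011 and 13933 in the 3. AC133509.1 held 287 to 494 reads in the 7 lines and 3804, 11614 and 4300 in the 3. Gm6548 (381 to 532 reads against 2181, 7913 and 3395), Gm48338 (3 to 10 against 39, 123 and 46) and Gm7049 (0 to 3.6 against 26.4, 42.7 and 13.2) followed the same order. Null line 2 was the highest of the 3 in each of these 6. Eef1a1 encodes the elongation factor that brings aminoacyl-tRNA to the ribosome, and Gm7049 was closest to Me1, the cytosolic malic enzyme.

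Another 4 pseudogenes were high in these 3 lines and in 1 or 2 wt lines. Gm13841, closest to Rpl29 of the large subunit, held 3388 reads in wt line 1 and 3560, 8842 and 3838 in null lines 1, 2 and 4, against 21.5 to 45.6 in the other 6 lines. Tdgf1-ps1 held 794 and 1285 reads in wt lines 1 and 2 and 1023, 4094 and 1370 in the 3 null lines, against 8.38 to 15.4 elsewhere. Tma7-ps held 181 and 241 reads in wt lines 1 and 2 and 206, 737 and 281 in the 3 null lines, against 0 to 4 elsewhere. Gm6916, also closest to Tma7, held 49.2 and 48.8 and then 48.5, 139 and 63.1 reads, against 2.04 to 8.14 elsewhere.

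These 10 pseudogenes lie on 9 different chromosomes, but the closest coding gene of each of them lies on chromosome 9, as it does for 88 of all 1039. Along chromosome 9 the 6 genes come in the order Eef1a1, Me1, Cyb5r4, Rpl29, Tma7 and Tdgf1, over 32.5 Mb in the GRCm38 annotation. Among these 10 the sets of high lines grew along this order, from null lines 1, 2 and 4 for the first 3 genes. Wt line 1 was added from Rpl29 (27.95 Mb after Eef1a1) and wt line 2 from Tma7 (30.6 Mb). The 10 were chosen by these sets, and other split pseudogenes with closest genes on chromosome 9 had other sets. By the largest gap Gm11449, closest to Rpl29, was high in wt line 2 only, and Gm15610, closest to Tma7, in null line 2 only. Gm15610 held 76.5 reads there, but also 20.9 and 23 in wt lines 1 and 2 and 12.7 and 27.3 in null lines 1 and 4. Elsewhere it held 2 to 8.1 reads, so its highest lines were those of Tma7-ps and Gm6916. Among the other genes only 2 had a split with 1 of these 3 sets of lines, Hcrtr2 and Trim43b, both on chromosome 9. Over all pairs of pseudogenes with 2 to 8 high lines and different closest genes, 13 of 31 pairs with the same high lines (41.9%) had closest genes on 1 chromosome, against 175 of 3278 pairs with different high lines (5.34%). Most of those 13 pairs lay within the chromosome 9 group itself. The pairs share pseudogenes and closest genes, since those 13 pairs came from 6 pairs of genes, so these shares are a description. Counted once per pair of closest genes, 6 of 24 with the same high lines lay on 1 chromosome, against 141 of 2677 with different high lines. The pseudogenes themselves lay on 1 chromosome in 4 of the 31 pairs (12.9%) and 159 of the 3278 (4.85%). All these values are reads placed by their match to reference transcripts, and the reads themselves were not used here. Whether they came from the pseudogenes or from the closest genes, for instance from alleles that differ from the reference in the lines concerned, was not tested, and the label C57BL/6 was not checked against sequence.

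Relative to the reads of their closest gene, null line 2 again stood above the other high lines. Tma7-ps had 3.71% and 4.05% of the reads of Tma7 in wt lines 1 and 2, 4.21% and 3.61% in null lines 1 and 4, 8.75% in null line 2 and at most 0.0497% in the other 5 lines. Tdgf1-ps1 had 3.02% and 2.89% of Tdgf1 in the 2 wt lines, 2.96% and 2.82% in null lines 1 and 4, 7.72% in null line 2 and at most 0.0348% elsewhere. Gm11868 had 18.8% and 19.1% of Cyb5r4 in null lines 1 and 4 and 46.4% in null line 2. Gm13841 had 28.4% of Rpl29 in wt line 1, 31.9% and 29.4% in null lines 1 and 4 and 113% in null line 2.

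Rpl29 itself was low in those lines, with 384 CPM in wt line 1, 349, 197 and 360 CPM in null lines 1, 2 and 4 and 518 to 610 CPM in the other 6. With Gm13841 added the CV over the 10 lines fell from 28.3% to 10.955%. Cyb5r4 had its lowest level, 65.1 CPM, in null line 2, and its CV fell from 15.3% to 12.4% with Gm11868 added. For Eef1a1, Me1, Tma7 and Tdgf1 the sum varied as much as the gene or more, with CVs of 6.35% and 6.81%, 22.8% and 23.3%, 18.7% and 19.1%, and 17.1% and 17.2%.

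**Figure D4:**
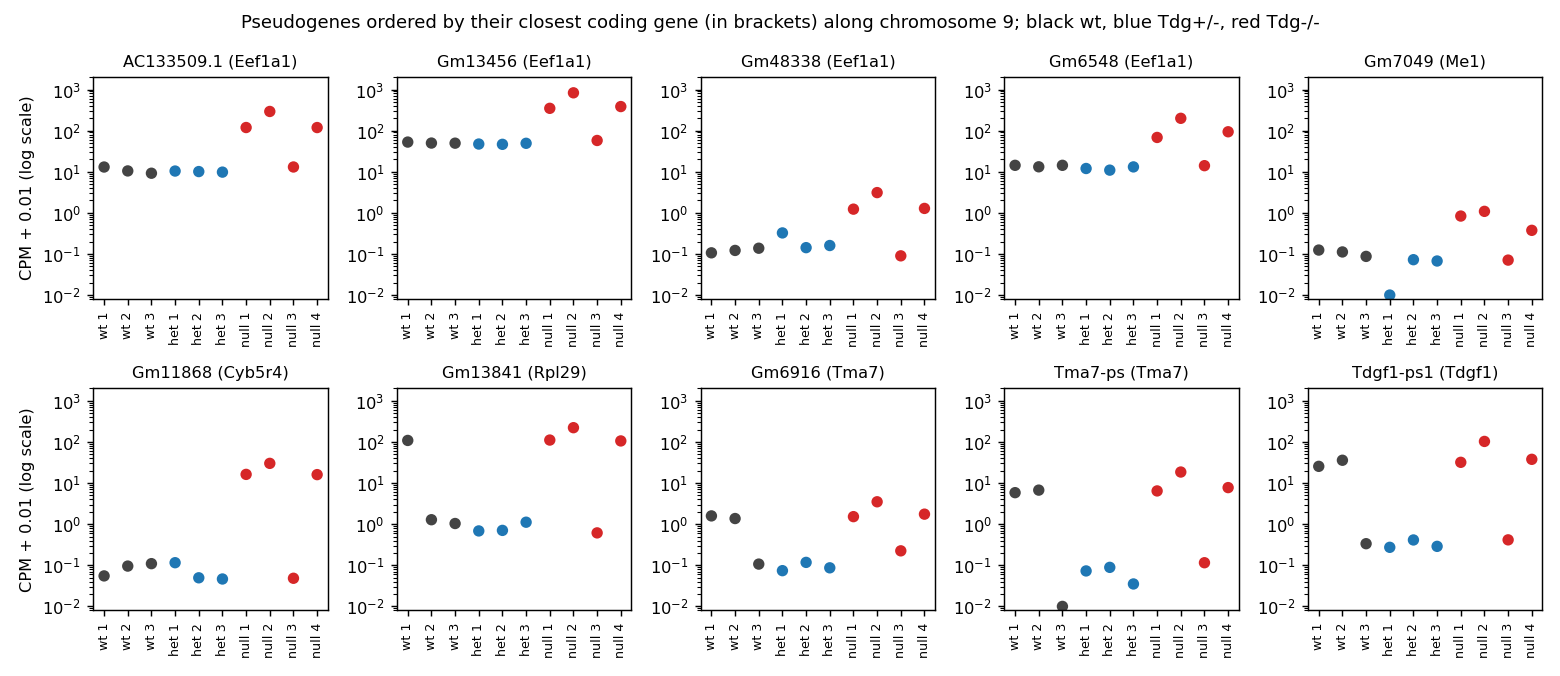
Each panel shows 1 pseudogene, with its closest coding gene in brackets, and a point per line at CPM + 0.01 on a log axis (black wt, blue het, red null). Panels follow the order of the closest genes along chromosome 9, and the high points are null lines 1, 2 and 4 alone from AC133509.1 to Gm11868, with wt line 1 added in Gm13841 and wt line 2 in Gm6916, Tma7-ps and Tdgf1-ps1.

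Smaller sets of lines recurred in the same way. Gm7887, closest to Pcnp, and Gm14058, closest to the pluripotency-associated gene Dppa4, were both high in het line 2 and null line 3, and both closest genes lie on chromosome 16, while Gm13991 with the same lines was closest to Rab5b on chromosome 10. Gm5874 (closest to Tsen15) and Gm7180 (closest to Timm17a) were high in wt line 3, het line 1 and null line 3, with both closest genes on chromosome 1. In other sets the closest genes lay on different chromosomes, as for Rpl36a-ps2, Rpl3-ps1, Gm12231 and Gm11966, which were high in wt lines 2 and 3.

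Over all pseudogenes the summed level did not separate the genotypes past what this design allows. It was 15599, 16549 and 18261 CPM in the wt lines, 15920, 15423 and 14498 in the het lines and 16466, 20534, 17869 and 18322 in the null lines. Every null line lay above every het line, and both overlapped the wt lines. The mean was 16803 ± 1349 CPM in wt (SD, n = 3), 15280 ± 722 in het (n = 3) and 18298 ± 1687 in null lines (n = 4). Exact two-sided permutation tests gave p = 0.2 for het against wt, 0.343 for null against wt and 0.0571 for null against het, the smallest p that 4 lines against 3 allow (0.1 for 3 against 3), or 0.4, 0.411 and 0.343 after adjustment over the 6 tests of this kind.

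The number of pseudogenes that were on was 675, 735 and 669 in the wt lines, 669, 740 and 758 in the het lines and 686, 830, 789 and 764 in the null lines. The genotypes overlapped in all 3 comparisons (exact permutation p = 0.5, 0.114 and 0.286, adjusted 0.5, 0.343 and 0.411). In each of the 3 same-numbered pairs of null and wt lines the null line had more (paired exact permutation p = 0.25, the smallest that 3 pairs allow). With reads scaled to the smallest library the numbers were 675, 668 and 668 in wt, 659, 656 and 664 in het and 673, 715, 697 and 702 in null lines. Every het line then lay below every wt and every null line, and the mean difference of het from wt lines turned from 29.3 more to 10.7 fewer (exact permutation p = 0.1 against wt and 0.0571 against null lines, the smallest these designs allow). Null and wt lines still overlapped, with null higher in 2 of the 3 pairs.

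Single pseudogenes were compared between genotypes with edgeR over all genes. Between het and wt lines 1 of 938 pseudogenes tested passed an adjusted p of 0.05, beside 0.0288% of all genes, and before adjustment 32 lay higher and 83 lower with p under 0.05, 12.3% beside 17% of all genes. It was Gm6158, closest to Cnot1, the scaffold of the CCR4-NOT deadenylase. It held 223, 278 and 338 reads in the wt lines, 0, 0 and 8 in the het lines and 276, 116, 208 and 0 in the null lines. The wt and het lines did not overlap, and null line 4 was at 0 like 2 het lines. Among the wt and het lines, Gm6158 reached the read minimum for testing only in wt lines, and the part of this in the call was not tested. The log2 fold change was -6.84 ± 0.719 (SE, edgeR adjusted p = 0.0376, n = 3 and 3), and the call was lost without wt line 2, wt line 3 or het line 2 (adjusted p = 0.118, 0.0746 and 0.0777). The median log2 fold change of het against wt was -0.06 for the pseudogenes and -0.02 for all genes. The count was 0 without wt line 2 or het line 2, 3 without wt line 3, 4 without het line 1 and 6 without wt line 1. For these fits the share of all genes called is not given here.

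Between null and wt lines 2 of 1012 pseudogenes tested rose, beside 0.0718% of all genes, and 0 fell. Before adjustment 161 lay higher and 31 lower with p under 0.05, 19.0% beside 15.9% of all genes, and DESeq2 called 16 pseudogenes. Gm9855, the copy of Tdg shown above, held 6.94, 7.67 and 2.44 reads in the wt lines, 59.96, 78.0 and 67.2 in the het lines and 72.2, 129, 95.5 and 79.5 in the null lines. Every null line lay above every wt line (log2 fold change 4.02 ± 0.396, edgeR adjusted p = 0.00752, n = 4 and 3), and the call held without any 1 line. The het lines also lay above the wt lines, by a log2 of 3.41 ± 0.426 that missed the threshold (edgeR adjusted p = 0.0609). Tdg itself held 2813 to 3372 reads in wt, 1348 to 1906 in het and 257 to 384 in null lines, so that Gm9855 made up 0.0820% to 0.246%, 3.41% to 4.64% and 20.7% to 25.1% of their sum. Of the windows of Gm9855, 23.3% were its own, and the part of reads shared with Tdg was not tested. Gm9855 lies on chromosome 10, as Tdg does. Genotype and alleles that may be inherited with Tdg cannot be told apart here.

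Pdcd5-ps was the only pseudogene that was on in all lines of a genotype and off in all of another. It was at 0 in all wt lines, held 0, 0 and 193 reads in the het lines and 64.8, 265, 128 and 201 in the null lines. Its level in the null lines, 4.41 ± 2.10 CPM (SD, n = 4), was at least 47.9-fold higher than the 3 reads per line taken as the floor for wt. The edgeR adjusted p was 0.028, and the call was lost without any 1 of the 3 wt lines or without null line 4 (adjusted p = 0.0677, 0.0509, 0.081 and 0.086). Among the wt and null lines, Pdcd5-ps and Gm9855 reached the read minimum for testing only in null lines. The part of this in their p values and in the bound for Pdcd5-ps was not tested. Pdcd5-ps was identical to Pdcd5 over its length with 0 windows of its own and lies on the same strand within Kcnk2. With the replicate number as a block, which leaves out null line 4, neither Pdcd5-ps nor Gm9855 passed (edgeR adjusted p = 0.0588 for both). Without null line 1 the number of pseudogenes called was 149, against 1 to 7 without any other line. The lines that moved it by over 1.5 times besides were wt lines 1 and 3 and null lines 3 and 4 (6, 1, 7 and 1 called). The share of all genes called in each of these fits, or by DESeq2, is not given here. These counts can thus not be read as particular to pseudogenes.

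Between null and het lines 50 of 1013 pseudogenes tested rose and 2 fell, 5.13% beside 9.03% of all genes. The share called was thus under that of all genes, but the direction was mostly 1 way, while among all genes 491 rose and 770 fell. The median log2 fold change was 0.35 for the pseudogenes and -0.02 for all genes, and 0.30 and -0.01 against wt, 2 comparisons that share the null lines. Of the 1039 pseudogenes 938 were tested between het and wt lines, against 1012 and 1013 in the comparisons with null lines. For all genes these numbers were 13880, 13926 and 13962 of 14081. Some pseudogenes thus reached 20 reads only in null lines, and the part of this in the direction was not tested. The closest coding genes of the pseudogenes, 370 tested, had medians of 0.24 against het and 0.22 against wt, with 35 that rose and 10 that fell against het. In 46 of the 50 every null line lay above every het line, which a call makes likely, and the share over all genes is not given here. The fold changes of 21 were under a log2 of 1, and the median of the 50 was 1.17. Of the 52, 16 were closest to ribosomal protein genes, beside 452 of the 1013 tested, and 10 were switched, beside 130 of all 1039. A further count, 5 closest to Zfp zinc finger genes, has no such number beside it.

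**Figure D5:**
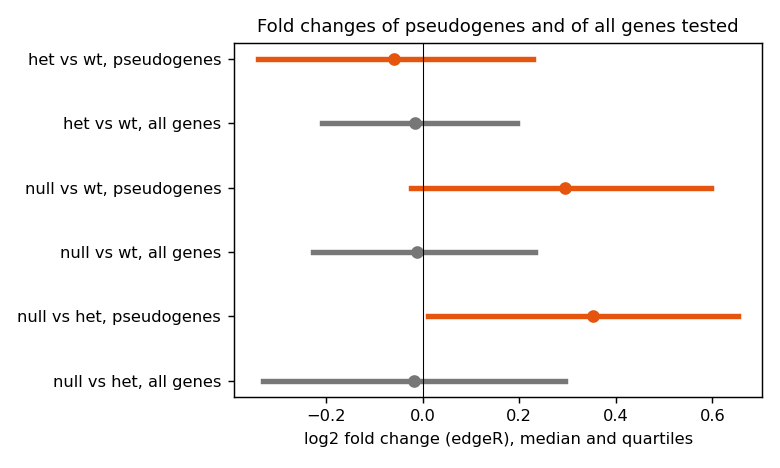
Points are median log2 fold changes (edgeR) and bars run from the lower to the upper quartile, for the pseudogenes (orange) and for all genes tested (grey) in each comparison. The pseudogenes' median lies at 0.30 for null against wt and 0.35 for null against het, with all genes at -0.01 and -0.02.

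Among the 52 were 9 of the 10 pseudogenes with closest genes on chromosome 9, all with null line 3 far under the other null lines. Gm11868 (log2 fold change 8.19 ± 1.71), Tma7-ps (7.27 ± 1.52), Tdgf1-ps1 (7.25 ± 1.51), Gm13841 (7.17 ± 1.49), Gm6916 (4.48 ± 0.907), Gm7049 (3.98 ± 1.05) and AC133509.1 (3.88 ± 0.817) were the highest of them (edgeR adjusted p = 0.0278 to 0.0474). Gm6158 had 5.90 ± 1.501 (edgeR adjusted p = 0.0442) with null line 4 at 0. Rpl15-ps3 held 0, 318 and 0 reads in the het lines and 1761 to 5834 in the null lines, but also 0, 3898 and 7038 in the wt lines (5.41 ± 1.25, edgeR adjusted p = 0.0365). Gm6395, closest to the chaperone gene Dnajb6, held 0, 0 and 19 reads in het and 21.6 to 232 in null lines (4.56 ± 1.04, edgeR adjusted p = 0.0351). Of the 2 that fell, Gm15452, identical to the cell cycle gene Cks2, held 0, 97 and 58.2 reads in het and 0 in all null lines (edgeR adjusted p = 0.0499). Its mean in het lines, 1.33 ± 1.28 CPM, was at least 16.1-fold higher than the floor of 3 reads per line. This bound is for the mean only, since het line 1 was at 0 like every null line. Among the het and null lines, Gm15452 reached the read minimum for testing only in het lines. The part of this in the call and the bound was not tested. In the wt lines Gm15452 held 0, 152 and 0 reads, and it overlaps Sntg1 on the same strand. Gm10163 held 830 to 2605 reads in het and 256 to 788 in null lines (-1.60 ± 0.411, edgeR adjusted p = 0.0456).

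The calls between null and het lines rested on the choice of lines. The 52 became 41, 11 and 3 without het lines 1, 2 and 3, and 253, 5, 12 and 4 without null lines 1, 2, 3 and 4, and all 52 were among the 253. Each of the 12 named here kept its call without null line 1, and for 4 to 6 of the 7 lines leaving out that line alone ended the call (edgeR adjusted p up to 0.159). In the fit of parent and pseudogene sums 13 of the 79 sums rose and 1 fell between null and het lines, beside 9.61% of all entries in that fit and against 12 and 1 of the parents alone. The 14 became 0 without het line 2 or 3 or null line 2, 3 or 4 and with the replicate block, 3 without het line 1 and 61 without null line 1. By edgeR 0 sums passed between het and wt or null and wt lines, beside 0.0291% and 0.0654% of all entries. An unadjusted p under 0.05 was found for 12 and 29 sums, beside 17.1% and 15.9% of all entries, and DESeq2 called 3 and 1. For the fits with a line left out, the block and DESeq2, the shares of all genes or entries called are not given here.

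By the family of the closest gene, 15 of 452 copies of ribosomal protein genes tested rose between null and het lines and 1 fell, with a median log2 fold change of 0.43. These 16, like the counts of the families that follow, stand beside 9.03% of all genes called. Of 43 copies of chaperone and folding genes 4 rose (median 0.34), of 30 copies of translation factors 3 rose (median 0.26), all of Eef1a1, and of 54 copies of glycolytic genes 1 rose (median -0.44). Copies of cytoskeletal, nuclear and RNA-binding, pluripotency and proteasome genes had 0 edgeR calls among 18, 35, 5 and 7 tested, with an unadjusted p under 0.05 in 2, 6, 1 and 3, beside 35.2% of all genes.

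At the minimum of 20 reads the pseudogenes just inside were AC165962.4, Gm13321 and Gm13033, each with 20 reads in its highest line, and just outside were Gm8375, Gm9333 and Rpl31-ps15 with 19.9 reads each.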

How the data were processed

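RNA of 10 ESC lines was sequenced by the authors from stranded, ribosome-depleted total RNA libraries with single-end reads and quantified on transcripts of build GRCm39 with Salmon 0.8.1. The files deposited by the authors give, per transcript, an estimated count, fractional where reads were divided and not normalized, and TPM. The TPM deposited by the authors were used only as an alternative for summed levels. No columns of the authors' own comparisons were used.

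Estimated counts were summed per gene through the GENCODE M21 annotation (GRCm38), which paired 115153 of 116357 transcripts (98.97%). Unpaired reads, 0.472% to 0.499% per line, were left out. Because the builds differ, no coordinates are given. CPM is per 1000000 reads in genes, with the lines holding 31095354 to 39916106. The closest coding gene is the best hit of blastn 2.17.0 (sense strand, word size 16, e-value 1e-10), and windows of 80 bases were compared between M21 transcripts. These transcripts had the length given in the files for 1021 of the 1039 pseudogenes.

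Counts rounded to whole numbers were tested with edgeR 4.0.16 in R 4.3.3 (quasi-likelihood, TMM, genes reaching 20 reads in any line compared, Benjamini-Hochberg over all genes, threshold 0.05) between the lines of 2 genotypes. Single values per line were compared by exact two-sided permutation tests (scipy 1.17.1). Alternatives were RLE size factors, other filters, DESeq2 1.42.0, all 10 lines in 1 fit, a replicate block, 3 surrogate variables (sva 3.50.0) and each line left out. Same-numbered null and wt lines deviated together (correlations 0.183, 0.137 and 0.195), and differently numbered ones had -0.227 to 0.113. Between other genotypes a differently numbered pair reached 0.287 (null line 4 with het line 2). Pairing of null and wt lines is thus an assumption here, and the labels name no shared source. No 2 lines held the same library. The test was checked on simulated counts.

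The pseudogenes, gene families and named genes were chosen with earlier results of these data known. Named were called pseudogenes (up to 10 in each direction by fold change), the 15 switched ones with most reads, those switched with genotype, the 10 most abundant, the most abundant of each family, the 5 with the largest share of their sum, and 3 on each side of the minimum. The chromosome 9 group, the other sets of lines and the pairs with whole sums were named after their values were seen.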

Additional observations from a re-analysis of the deposited data

Results flagged for a closer look

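Of 46 quantities examined in the 4 null lines, 2 had 1 line far from the other 3. The test marks about 1 in 20 groups of unrelated, normally spread values, but some quantities here were named for being switched. How many chance would give can thus not be said. Gm15387, closest to Hmgb1, had 37.9 CPM in null line 1 and 0 in the others, so that the gap to the nearest line was 1 of the whole range. Gm2223, identical to Eif2s3x, had 23.8 CPM in null line 1 and at most 0.840 CPM in the others, a gap of 0.965 of the range. The critical value for 4 lines is 0.829. Both pseudogenes have 0 windows of their own, and the part of this in the values was not tested.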

How the results depend on the processing

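Pseudogenes called between het and wt, null and wt, and null and het lines numbered 1, 2 and 52. With no filter on low counts these were 25, 8 and 71, with DESeq2 37, 16 and 127, and with all 10 lines in 1 fit 2, 1 and 64. Requiring 20 reads in 3 lines gave 2, 2 and 59, and 3 surrogate variables gave 152 between het and wt lines. Among pseudogenes with whole reads 0 passed in each comparison. With the replicate block the counts were 9, 3 and 3. The same-numbered lines did not pair for het against wt (correlations 0.105, 0.0631 and -0.0471) or for null against het (0.0489, 0.0337 and -0.134). Leaving out 1 line gave 0 to 6, 1 to 149 and 3 to 253. The shares of all genes called in these alternatives are not given here, so the counts cannot be read as particular to pseudogenes.

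Parent sums called numbered 0, 0 and 14. DESeq2 gave 3, 1 and 42, all 10 lines in 1 fit 25 between null and het lines, the replicate block 0 there, and 3 surrogate variables 25 between het and wt lines. Leaving out 1 line gave 0 for het against wt, 0 to 54 for null against wt and 0 to 61 for null against het. The causes were not tested, and the shares of all entries called in these alternatives are not given here.

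Of 130 switched pseudogenes 66 remained with on at 50 reads and 6 with whole reads only. Of the 139 splits 69 had a gap of at least 2, and a pseudocount of 0.5 CPM left 84, both alternatives chosen after seeing the data. The difference in pseudogenes on between het and wt lines was -10.7 with reads scaled to the smallest library, against 29.3. Pairing the same-numbered null and wt lines, added after seeing the data, gave 75.3 more pseudogenes on and 1487 CPM more in null lines (exact p = 0.25 and 0.5). Summed levels kept their direction and their side of the threshold in all alternatives run. The log2 fold changes of the named pseudogenes kept their direction in all 162 alternatives with an adjusted p, of which 86 missed the threshold. Of the pseudogenes 493 lay under 1 CPM.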
